A study of Mus musculus with 8 samples.

Results

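SR proteins and heterogeneous nuclear ribonucleoproteins (hnRNPs) are the main families of regulatory proteins that bind pre-mRNA and set which splice sites are used, and their genes are described here in mouse macrophages given disulfiram and a bacterial stimulus. The members were all genes whose symbol is Srsf followed by a number or begins with Hnrnp, with pseudogene symbols left out. That rule took 31 of the 55414 gene identifiers in the table, 11 SR protein genes and 20 hnRNP genes. It did not itself use any measured value, but it was set with earlier results of these data known. The read counts came from 8 RNA-seq libraries in 4 groups of 2, made from wild-type iBMDM cells, an immortalized line of mouse bone-marrow-derived macrophages. The DSF+LPS group received disulfiram (DSF) at 5 μM for 0.5 h, followed by lipopolysaccharide (LPS) at 1 μg/ml for 4 h. The DSF group received the drug at the same dose and then water, the LPS group received the solvent DMSO and then LPS, and the control group received DMSO and water. DSF is a drug used against alcohol dependence that inhibits aldehyde dehydrogenase, and LPS, from the outer membrane of bacteria, is bound by MD-2 together with the receptor TLR4. The study addressed whether the drug interferes with TLR4 signalling through MD-2. The labels do not say whether the samples of a group were separate cultures, so the spread behind every p-value may be technical only.

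SR proteins carry RNA recognition motifs and a domain rich in arginine and serine, and as a rule they help the spliceosome to define exons by binding enhancer sequences. Phosphorylation of that domain by the SRPK, CLK and DYRK kinases sets where SR proteins reside in the cell and how active they are, and the importin-like protein Transportin-SR carries them into the nucleus. HnRNPs coat nascent transcripts and often oppose SR proteins by binding silencer sequences. Several of them also act on mRNA export, translation and decay, among them the decay of cytokine mRNAs with AU-rich elements. Most SR protein genes and many hnRNP genes have exons that, when spliced in, send their own mRNA to nonsense-mediated decay. Counts per gene, as used here, do not separate such isoforms.

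The libraries held 17822041 to 21694922 counts, and levels are given as CPM, a gene's counts scaled to a common library size by TMM, the trimmed mean of M-values. Tnf, which encodes tumour necrosis factor, averaged 230.0 CPM in DSF+LPS, 50.4 CPM in DSF, 841 CPM in LPS and 37.5 CPM in control. Il1b averaged 12.2, 1.58, 592 and 0.961 CPM in the same order of groups. Hspa1b, a heat shock protein gene, averaged 15682 CPM in DSF+LPS, 9809 CPM in DSF, 15.8 CPM in LPS and 16.7 CPM in control, and Hmox1, which encodes heme oxygenase 1, 6898, 6467, 212 and 184 CPM. All 8 macrophage markers were detected in each group, with sums of 1956 to 2697 CPM per library. Single markers did change (edgeR adjusted p under 0.05). In DSF relative to control 2 rose and 4 fell (log2 fold changes -1.93 to 0.39), against 31.0% and 27.1% of all genes. In DSF+LPS relative to LPS 2 rose and 5 fell (-2.36 to 1.25), against 33.7% and 31.6%. In LPS relative to control 4 rose and 0 fell (-1.15 to 0.92), against 15.2% and 13.8%. Summed marker lists of neutrophils, dendritic cells, lymphocytes, fibroblasts and epithelial or endothelial cells did not exceed 4.44 CPM in any library. The sums of these lists were in most cases higher with DSF. No fibroblast marker passed the filter on low counts. Of the other lists, 1 neutrophil, 3 dendritic cell, 2 lymphocyte and 2 epithelial or endothelial markers were tested. In DSF relative to control 1, 2, 1 and 1 of them rose, against 31.0% of all genes. In DSF+LPS relative to LPS 0, 1, 1 and 1 rose, against 33.7%. None was called lower in either comparison. The libraries with DSF also had more genes with at least 1 count, 23416 to 25081 against 19779 to 20324 without DSF. The part of these differences in the results below was not tested. Pearson's r between replicate libraries was 0.985 to 0.992, computed over genes, which are not independent replicates.

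Of the 31 members, 30 passed the filter on low counts and were tested. The exception was Srsf12, which had 1 and 0 counts in the DSF+LPS libraries, 4 and 0 counts in the DSF libraries, and no counts in the LPS and control libraries. Its 0 counts allow up to 0.0706 CPM, by plain library totals, in LPS and 0.0769 in control, taking 3 counts over the 2 libraries of a group as the limit, which covers counting error only. At this depth Srsf12 was therefore close to or under the limit of detection in all groups, and it is left out of what follows.

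The members together took 0.730% ± 0.025 of all counts in the DSF+LPS libraries and 0.804% ± 0.0040 in the DSF libraries (SD, n = 2 each). In the LPS libraries they took 1.042% ± 0.015, and in the control libraries 1.066% ± 0.0007. Both families were lower with the drug. The SR protein genes made up 0.133%, 0.147%, 0.209% and 0.211% of counts in DSF+LPS, DSF, LPS and control, and the hnRNP genes 0.596%, 0.657%, 0.834% and 0.856%. All 4 libraries with DSF lay below all 4 libraries without it in either family. As these are bulk samples, less RNA of a gene per cell and fewer cells that express it cannot be told apart.

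**Figure D1:**
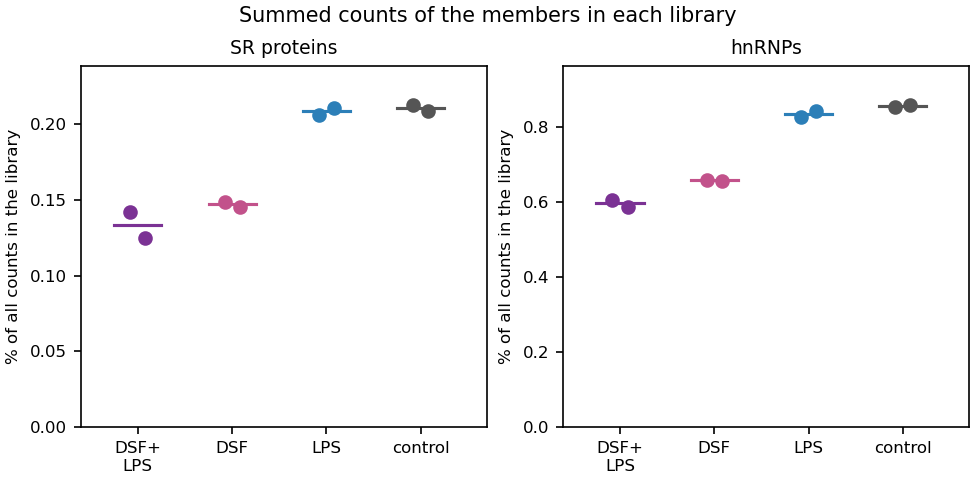
Summed counts of the 11 SR protein genes (left) and the 20 hnRNP genes (right) as a percentage of all counts in a library, for DSF+LPS, DSF, LPS and control. Points are libraries and bars are group means (n = 2). The SR protein genes took 0.133% of counts in DSF+LPS and 0.147% in DSF, below the 0.209% in LPS and 0.211% in control.

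Levels differed widely between members. Divided by the median length of their protein-coding transcripts, so that genes could be compared, the control levels were led by Hnrnpa2b1, which encodes the abundant A2 and B1 proteins, at 758 ± 15.4 CPM per kb (SD, n = 2). Hnrnpab followed at 521 ± 33.5 CPM per kb, and Hnrnpl, Hnrnpm and Hnrnpf lay close together at 227, 224 and 219.6 CPM per kb, with overlapping control libraries. Srsf2 was the highest SR protein gene at 172 ± 0.919 CPM per kb, ahead of Srsf1 at 158 ± 3.75 and Srsf6 at 144 ± 4.38 CPM per kb. The lowest tested members were Srsf4 at 12.9 and Hnrnph3 at 7.11 CPM per kb. The 30 tested members thus spanned about 2 orders of magnitude in macrophages given no agent.

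Promoters of 4 members are shown first, as examples chosen by how these genes changed with the drug. Motifs of the heat shock and oxidative stress responses were among those searched, because Hspa1b and Hmox1 were so much higher with the drug. A link between motifs and levels was not tested. RefSeq promoter windows, 250 bases before to 50 bases after a transcription start, were matched by symbol for 29 of the 31 members (41 windows, GRCm38.p6). Srsf10 and Hnrnpd had the lowest DSF+LPS levels relative to LPS, and Hnrnpl fell strongly in both drug comparisons. Hnrnpc was the only gene with an Hnrnp symbol called higher with the drug. The 4 windows below belong to these genes. They lie at chr4:135855821-135856120 on the plus strand (Srsf10), chr5:99978889-99979188 on the minus strand (Hnrnpd), chr7:28810640-28810939 on the plus strand (Hnrnpl) and chr14:52103972-52104271 on the minus strand (Hnrnpc). They run 5′ to 3′ in lower case, with matches to the searched motifs in capitals.
Srsf10: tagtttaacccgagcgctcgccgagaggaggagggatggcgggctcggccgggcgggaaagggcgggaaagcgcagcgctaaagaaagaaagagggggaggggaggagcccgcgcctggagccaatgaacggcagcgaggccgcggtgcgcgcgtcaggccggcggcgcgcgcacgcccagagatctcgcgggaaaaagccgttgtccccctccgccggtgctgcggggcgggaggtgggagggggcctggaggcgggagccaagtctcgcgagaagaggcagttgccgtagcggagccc
Hnrnpd: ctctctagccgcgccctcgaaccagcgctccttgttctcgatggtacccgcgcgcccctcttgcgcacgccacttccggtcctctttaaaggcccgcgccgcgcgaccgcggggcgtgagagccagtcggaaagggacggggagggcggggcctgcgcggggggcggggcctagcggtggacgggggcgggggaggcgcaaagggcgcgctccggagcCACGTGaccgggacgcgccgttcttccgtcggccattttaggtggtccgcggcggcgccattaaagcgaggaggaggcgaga
Hnrnpl: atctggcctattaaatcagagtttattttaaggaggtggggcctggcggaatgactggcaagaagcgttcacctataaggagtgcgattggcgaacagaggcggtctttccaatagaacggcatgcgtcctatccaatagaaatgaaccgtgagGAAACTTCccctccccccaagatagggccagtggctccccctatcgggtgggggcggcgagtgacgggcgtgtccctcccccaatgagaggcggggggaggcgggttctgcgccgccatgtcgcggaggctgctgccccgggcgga
Hnrnpc: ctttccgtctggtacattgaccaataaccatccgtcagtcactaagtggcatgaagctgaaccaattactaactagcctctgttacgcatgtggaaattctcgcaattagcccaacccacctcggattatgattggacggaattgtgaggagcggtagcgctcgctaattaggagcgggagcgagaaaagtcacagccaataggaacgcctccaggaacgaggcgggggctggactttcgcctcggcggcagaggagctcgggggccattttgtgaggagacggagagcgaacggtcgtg

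The capitals mark an E-box, CACGTG, at -32 to -27 from the start of Hnrnpd, and a pair of inverted heat shock element half-sites, GAAACTTC, at -96 to -89 from the start of Hnrnpl. The Srsf10 and Hnrnpc windows held no match, and neither did those of Hnrnpr and Hnrnpul1, which fell more than Hnrnpl with DSF alone. Motifs were searched on both strands as GAANNTTC or TTCNNGAA (heat shock element, where the 2 forms can overlap), TGACNNNGC (antioxidant element) and CACGTG (E-box). The heat shock pattern was in 12.2% of the 41 member windows, against 15.1% of all 32841 windows of the same length. The genes with it were Hnrnpa2b1, Hnrnpf, Hnrnpl and Srsf9, all of which were called lower with DSF, as were 73.3% of the 30 tested members. The antioxidant pattern was in 29.3% of member windows (9 genes), against 12.4% of all windows, and the E-box was in 12.2% (5 genes), against 7.15%. Member windows had a median GC content of 68.3%, against 52.7% over all windows, and these shares were not adjusted for it. A match is a description of letters and not of binding.

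DSF alone lowered the RNA of most SR protein and hnRNP genes. Of the 30 members tested against control, 22 fell and 2 rose at an edgeR adjusted p under 0.05. Over all 16304 genes tested, 27.1% were called lower and 31.0% higher, and of the members 73.3% were called lower and 6.67% higher. The median log2 fold change of the members was -0.30, against 0.05 over all genes. None of the 22 falls reached 2-fold. SR protein genes and hnRNP genes were alike in the share that fell, 7 of 10 and 15 of 20, with medians of -0.59 and -0.28, a difference that was not tested.

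Among the SR protein genes, Srsf10 fell most with DSF. Srsf10 (ENSMUSG00000028676) encodes SRp38, which is known to become a general repressor of splicing when it is dephosphorylated after heat shock. It had 70.3 and 64.3 CPM in the DSF libraries, against 119 and 122 CPM in the control libraries (log2 fold change -0.84, SE 0.08, edgeR adjusted p = 4.8e-07). Srsf9, which encodes SRp30c, had 66.0 and 71.8 CPM with DSF, against 126 and 119.8 CPM in control, a log2 fold change of -0.83 (SE 0.08, edgeR adjusted p = 4.12e-07). The genes stood at 0.557 and 0.561 of their control levels, with no overlap between libraries. Over all genes tested, 38% had both DSF libraries below both control libraries, and 42.2% had them above.

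Srsf2 encodes SC35, a constituent of nuclear speckles, the stores of splicing factors. Its levels were 166 and 165 CPM with DSF and 277 and 279 CPM in control (log2 fold change -0.75, SE 0.08, edgeR adjusted p = 1.11e-06). Srsf4, which encodes SRp75, was measured at a low level, 18.9 and 15.6 CPM with DSF and 28.9 and 29.5 CPM in control, and fell by a similar size (log2 fold change -0.76, SE 0.13, edgeR adjusted p = 0.000144). Srsf6, which encodes SRp55, and Srsf1, which encodes the founding family member SF2/ASF, fell less, with log2 fold changes of -0.63 (SE 0.07, edgeR adjusted p = 1.52e-06) and -0.55 (SE 0.07, edgeR adjusted p = 5.71e-06). Srsf5, which encodes SRp40, fell least of the 7, with a log2 fold change of -0.30 (edgeR adjusted p = 0.00202).

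The other SR protein genes went another way or did not pass. Srsf11, which encodes p54, had 237 and 228 CPM with DSF and 209 and 203 CPM in control (log2 fold change 0.18, SE 0.07, edgeR adjusted p = 0.0307). Its rise passed narrowly and was lost in 8 of 15 alternative settings. Among them were leaving out either control, DSF or LPS library, and library size alone (log2 fold change 0.07, edgeR adjusted p = 0.35). Srsf3 and Srsf7 encode closely related SR proteins, which also act as adaptors for mRNA export. Srsf3 had 91.2 and 101 CPM with DSF and 113 and 114 CPM in control, and Srsf7 had 195 and 226 CPM with DSF and 215 and 190.2 CPM in control, and neither passed the test. For Srsf7 the libraries of the groups overlapped.

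Among the hnRNP genes the falls with DSF were largest in Hnrnpr, Hnrnpul1 and Hnrnpl. Hnrnpr (ENSMUSG00000066037), a close relative of the hnRNP Q gene Syncrip, had 83.7 and 72.8 CPM with DSF, against 148 and 145 CPM in control (log2 fold change -0.91, SE 0.09, edgeR adjusted p = 5.78e-07). Hnrnpul1, a relative of the scaffold protein hnRNP U, had 138 and 143 CPM with DSF and 244 and 279.5 CPM in control, a log2 fold change of -0.90 (SE 0.08, edgeR adjusted p = 1.37e-07). Hnrnpl, whose protein binds CA repeats, had 257 and 271 CPM with DSF, against 479 and 493 CPM in control (log2 fold change -0.88, SE 0.06, edgeR adjusted p = 2.43e-08). The 3 genes stood at 0.533, 0.536 and 0.544 of their control levels. Their DSF libraries lay wholly below the control libraries, as did those of 38% of all genes. Hnrnpll, the paralog of Hnrnpl, fell less, with a log2 fold change of -0.29 (edgeR adjusted p = 0.00544).

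Hnrnpd (ENSMUSG00000000568) encodes AUF1, which binds AU-rich elements and promotes decay of cytokine mRNAs. It had 93.5 and 97.5 CPM with DSF and 152 and 161 CPM in control (log2 fold change -0.71, SE 0.09, edgeR adjusted p = 9.35e-06). Its relative Hnrnpab changed less, 873 and 937 CPM with DSF and 1002 and 1097 CPM in control, a log2 fold change of -0.21 (SE 0.06, edgeR adjusted p = 0.00902) that was lost without control replicate 2 (-0.16, adjusted p = 0.108). The third gene of this group, Hnrnpdl, had 191 and 201 CPM with DSF, against 193 and 185 CPM in control, and did not pass the test. Of these 3 related genes, Hnrnpd changed most.

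The genes of the A/B proteins, which bind splicing silencers, fell moderately. Hnrnpa0 had a log2 fold change of -0.48 (edgeR adjusted p = 0.000115) and Hnrnpa2b1 one of -0.30 (adjusted p = 0.000391), the last at 1012 and 1021 CPM with DSF and 1266 and 1231 CPM in control. Hnrnpa1 fell with a log2 fold change of -0.20 (edgeR adjusted p = 0.0214). That call was lost in 3 of 15 alternative settings, among them without control replicate 1 (-0.17) and without DSF replicate 2 (-0.21). Hnrnpa3 did not pass, at 87.5 and 83.9 CPM with DSF and 87.0 and 82.8 CPM in control, with overlapping libraries. In the F/H group, whose proteins bind G-rich sequence, Hnrnph1 and Hnrnpf fell with log2 fold changes of -0.50 (edgeR adjusted p = 3.45e-05) and -0.49 (adjusted p = 1.53e-05). Hnrnph2, an X-linked relative, had 86.5 and 77.6 CPM with DSF and 73.1 and 71.2 CPM in control and did not pass (log2 fold change 0.19, SE 0.09, edgeR adjusted p = 0.0809). Hnrnph3 had 14.1 and 15.1 CPM with DSF and 15.5 and 15.4 CPM in control, and did not pass.

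Hnrnpk, whose protein binds C-rich sequence, fell with a log2 fold change of -0.29 (edgeR adjusted p = 0.00224) and Hnrnpul2 with one of -0.27 (adjusted p = 0.00376). Hnrnpm and Hnrnpu, the second of which encodes a chromatin-associated scaffold protein, were among the highest members and fell little, with log2 fold changes of -0.19 (edgeR adjusted p = 0.0215) and -0.13 (adjusted p = 0.0459). The Hnrnpm call was lost in 3 of 15 alternative settings, among them without control replicate 1 (-0.17) and without DSF replicate 1 (-0.21). The Hnrnpu call was lost without control replicate 1 (adjusted p = 0.0912), control replicate 2 (adjusted p = 0.147) or DSF replicate 2 (adjusted p = 0.0745), and under 4 other settings, with an adjusted p of up to 0.249 under the stricter filter.

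Hnrnpc (ENSMUSG00000060373) was the clear exception among the 20 genes with an Hnrnp symbol. Its protein binds uridine tracts of nascent transcripts as a tetramer. Hnrnpc had 367 and 407 CPM with DSF, against 237 and 244 CPM in control, 1.61-fold higher (log2 fold change 0.69, SE 0.07, edgeR adjusted p = 6.67e-07). Hnrnpc made up 5.69% and 6.21% of all hnRNP counts in the DSF libraries, against 3.01% and 3.09% in the control libraries. Srsf11 made up 16.2% and 15.7% of SR protein counts with DSF, against 10.7% and 10.5% in control, while its own level was 1.13-fold that of control and most other SR protein genes fell.

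**Figure D2:**
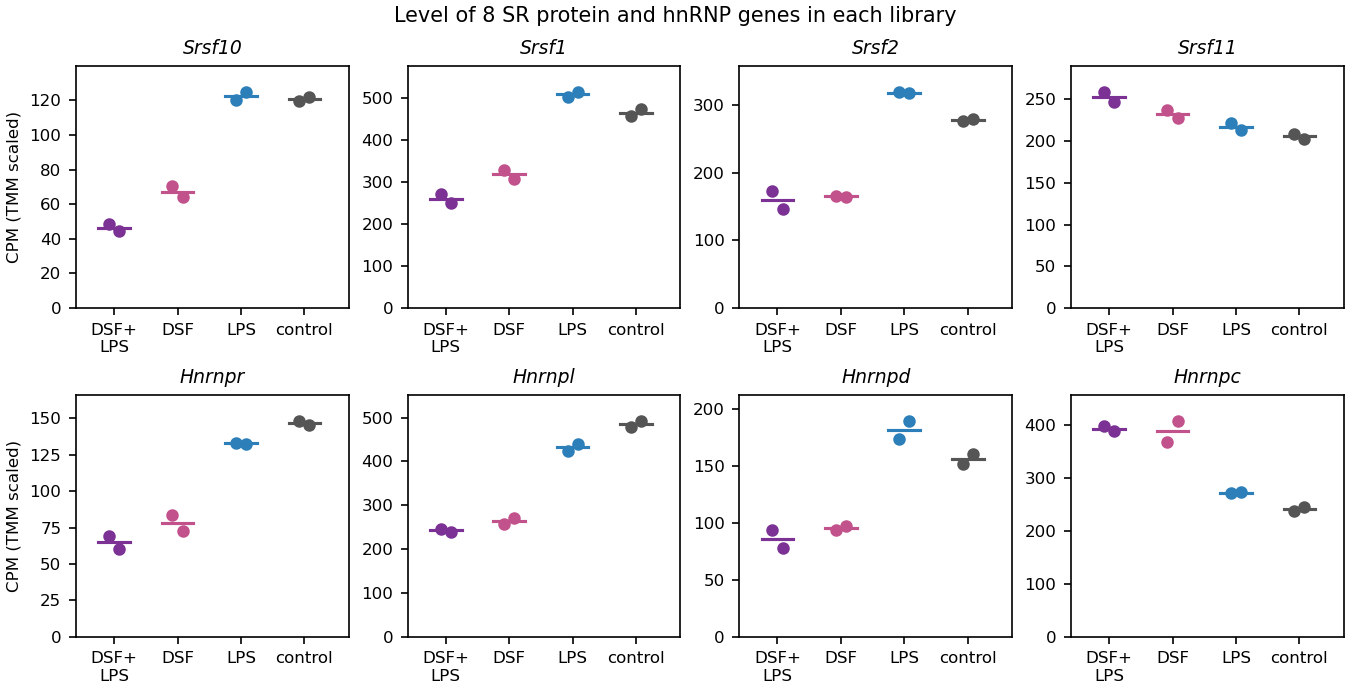
Level of 8 members in each library, in CPM after TMM scaling, for DSF+LPS, DSF, LPS and control. Points are libraries and bars are group means (n = 2). In 6 of the plotted genes both drug groups lie below both groups without the drug, while Srsf11 and Hnrnpc lie above, with Hnrnpc at 367 and 407 CPM in DSF against 237 and 244 CPM in control.

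In cells that also received LPS, nearly the same genes were lower with the drug. Of the 30 members, 24 fell and 2 rose in DSF+LPS relative to LPS (edgeR adjusted p under 0.05), with 31.6% of all genes called lower and 33.7% called higher. The members' median log2 fold change was -0.59, against 0.04 over all genes. Falls were called in 8 of 10 SR protein genes (median -0.66) and 16 of 20 hnRNP genes (median -0.43). In 3 members, Srsf10, Hnrnpd and Hnrnpr, the fall exceeded 2-fold.

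Srsf10 again led. It had 48.4 and 44.3 CPM in DSF+LPS, against 120.2 and 125 CPM in LPS, which is 0.379 of the LPS level (log2 fold change -1.40, SE 0.08, edgeR adjusted p = 1.83e-09). Srsf2 had 173 and 147 CPM in DSF+LPS, against 319 and 318 CPM in LPS, and Srsf1 271 and 249 CPM in DSF+LPS, against 503 and 514 CPM in LPS. The log2 fold changes were -0.99 (SE 0.08, edgeR adjusted p = 4.07e-08) for Srsf2 and -0.97 (SE 0.07, edgeR adjusted p = 1.04e-08) for Srsf1. Srsf1 stood at 0.511 of its LPS level, and the libraries of the groups did not overlap in any of the 3 genes. Over all genes tested, 39.5% had both DSF+LPS libraries below both LPS libraries, and 42.7% had them above.

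The remaining SR protein genes that fell were Srsf6, Srsf4, Srsf9, Srsf3 and Srsf5, with log2 fold changes of -0.72, -0.68, -0.63, -0.60 and -0.58 and edgeR adjusted p-values of at most 0.000321. Srsf3 was called here, at 93.7 and 70.9 CPM in DSF+LPS and 118 and 132 CPM in LPS, although the 2 DSF+LPS libraries were far apart. Srsf7 was at 284 and 197 CPM in DSF+LPS and 248 and 249 CPM in LPS and did not pass, its DSF+LPS libraries lying on either side of the LPS libraries. Srsf11 had 259 and 247 CPM in DSF+LPS, against 221 and 213 CPM in LPS (log2 fold change 0.22, SE 0.07, edgeR adjusted p = 0.0087). That call was lost without LPS replicate 2 (0.18, adjusted p = 0.0971) or DSF+LPS replicate 1 (0.17, adjusted p = 0.0514).

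Among the hnRNP genes, Hnrnpd had 94.1 and 77.9 CPM in DSF+LPS, against 174 and 189.7 CPM in LPS (log2 fold change -1.08, SE 0.09, edgeR adjusted p = 9.57e-08). Hnrnpr had 69.3 and 60.2 CPM in DSF+LPS, against 133 and 132 CPM in LPS (log2 fold change -1.04, SE 0.09, edgeR adjusted p = 1.15e-07). They stood at 0.474 and 0.488 of their LPS levels. Hnrnpl and Hnrnpul1 followed with log2 fold changes of -0.83 and -0.81, at 247 and 239.6 CPM in DSF+LPS against 424 and 439.7 CPM in LPS for Hnrnpl, and 122 and 128 CPM against 219.7 and 218 CPM for Hnrnpul1 (edgeR adjusted p = 2.99e-08 and 3.15e-07).

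Hnrnpf, Hnrnph1, Hnrnpa1 and Hnrnpk fell with log2 fold changes of -0.74, -0.67, -0.64 and -0.60 (edgeR adjusted p at most 3.06e-06). Hnrnpa1, which had fallen little with DSF alone, had 129 and 137 CPM in DSF+LPS, against 204 and 209.8 CPM in LPS. Hnrnpa2b1, Hnrnpab, Hnrnpll, Hnrnpa0, Hnrnpu and Hnrnpa3 fell with log2 fold changes of -0.55, -0.43, -0.43, -0.39, -0.35 and -0.35 (edgeR adjusted p at most 0.000966). The smallest called falls were in Hnrnpul2 (-0.24, edgeR adjusted p = 0.00817) and Hnrnpm (-0.17, adjusted p = 0.0336). The Hnrnpul2 call was lost without LPS replicate 1 (-0.18, adjusted p = 0.0915), and the Hnrnpm call without LPS replicate 1 (-0.13, adjusted p = 0.206) or DSF+LPS replicate 2 (-0.09, adjusted p = 0.305), and under 4 other settings (adjusted p up to 0.205). Hnrnpdl, at 224 and 193 CPM in DSF+LPS and 203 and 212 CPM in LPS, gave a log2 fold change of 0.01 (SE 0.08, edgeR adjusted p = 0.954), and Hnrnph2 and Hnrnph3 did not pass either.

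Hnrnpc was higher here too, at 397 and 387 CPM in DSF+LPS against 270.2 and 273 CPM in LPS (log2 fold change 0.53, SE 0.07, edgeR adjusted p = 6.56e-06). Its share of hnRNP counts was 6.19% and 6.16% in DSF+LPS, against 3.16% and 3.18% in LPS. Srsf11 made up 17.2% and 18.5% of SR protein counts in DSF+LPS, against 10.4% and 9.91% in LPS.

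DSF+LPS with LPS and DSF with control share no library, so their calls could be set side by side. All 22 members that fell with DSF alone also fell in DSF+LPS relative to LPS, which is 100% of the first list and 91.67% of the second. The same shares were not computed over all genes, so this overlap cannot be read as particular to the members. The members in the second list alone were Srsf3 and Hnrnpa3. Of the 22 shared falls, 15 were larger in DSF+LPS relative to LPS and 7 were smaller, these being Srsf9, Srsf4, Hnrnpl, Hnrnpul1, Hnrnpa0, Hnrnpul2 and Hnrnpm. The tests of these differences are those of the interaction below. Both rises, Hnrnpc and Srsf11, were in both lists. Across the 30 members the log2 fold changes had a Pearson's r of 0.888, given as a description since the members share libraries and 1 fit, and 22 of the 30 values were lower in DSF+LPS with LPS than in DSF with control. Between log2 fold change and log2 gene length, r was 0.05 for DSF+LPS with LPS and -0.03 for DSF with control over the 30 members.

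**Figure D3:**
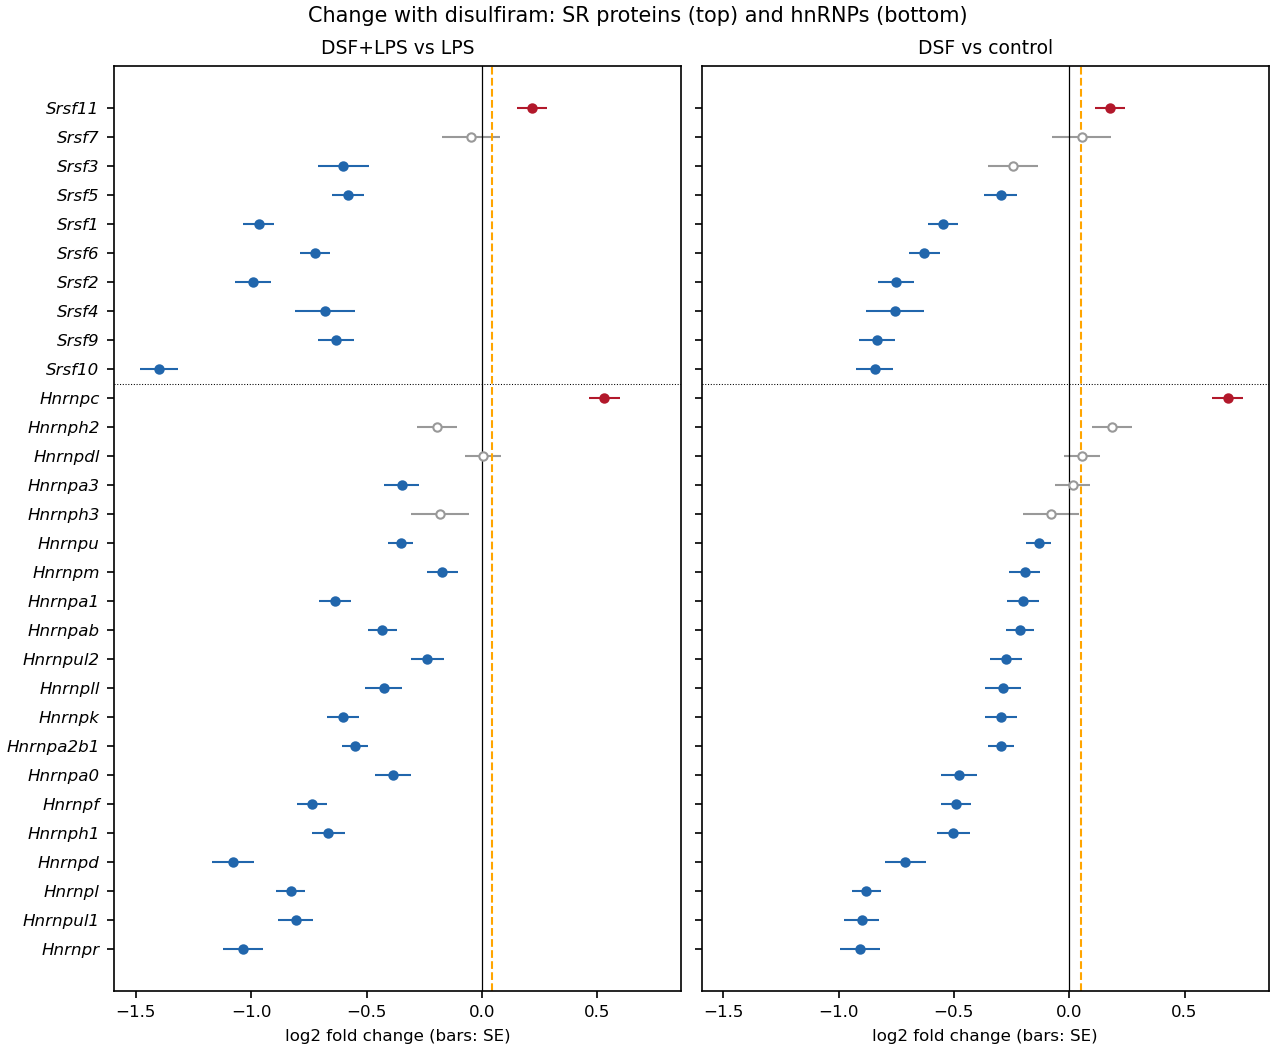
Log2 fold change of each tested member for DSF+LPS with LPS (left) and DSF with control (right), SR protein genes above and hnRNP genes below the dotted line. Points are edgeR estimates with bars of 1 SE, filled blue where the gene was called lower and filled red where it was called higher at an adjusted p under 0.05, with open circles for the rest; the dashed orange line is the median over all genes. Most points lie left of zero in both panels, with Srsf10 lowest at -1.40 on the left, and Hnrnpc and Srsf11 are the red points in both.

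LPS without the drug moved the members little. Of 30 members, 7 rose and 1 fell in LPS relative to control (edgeR adjusted p under 0.05), against 15.2% of all genes called higher and 13.8% called lower. No change reached 2-fold. The members' median log2 fold change was 0.12 with TMM scaling but -0.04 with library size alone, where 0 members were called higher and 4 lower and the median over all genes moved by -0.143. None of these 8 calls was kept in every one of 15 alternative settings. The count of rises was 2 without control replicate 1, 1 without control replicate 2, 2 without LPS replicate 1 and 1 without LPS replicate 2, and it was 10 without either DSF+LPS library.

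The genes called higher were Hnrnph2 (0.30), Srsf5 (0.29), Hnrnpab (0.28), Hnrnpa1 (0.26), Hnrnpk (0.21), Hnrnpf (0.21) and Hnrnpu (0.17), as log2 fold changes with edgeR adjusted p-values of 0.00299 to 0.0336. Hnrnpab had 1256 and 1297 CPM in LPS, against 1002 and 1097 CPM in control, and Srsf5 had 139 and 142 CPM in LPS, against 117 and 113 CPM in control. The gene called lower was Hnrnpul1, with 219.7 and 218 CPM in LPS and 244 and 279.5 CPM in control (log2 fold change -0.26, SE 0.07, edgeR adjusted p = 0.0156). Srsf10, the member that fell most in DSF+LPS relative to LPS, was at 120.2 and 125 CPM in LPS and 119 and 122 CPM in control, with overlapping libraries.

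With the drug present, adding LPS gave 3 falls and no rise among the members. In DSF+LPS relative to DSF, Srsf10, Srsf1 and Hnrnpa3 were called lower, against 6.53% of all genes called lower and 5.52% called higher. At an unadjusted p under 0.05 the edgeR test gave 7 lower and 2 higher, and DESeq2 at an adjusted p under 0.05 gave 3 lower and 1 higher. Srsf10 had 48.4 and 44.3 CPM in DSF+LPS, against 70.3 and 64.3 CPM in DSF (log2 fold change -0.54, SE 0.08, edgeR adjusted p = 0.00102). Srsf1 had 271 and 249 CPM in DSF+LPS and 329 and 308 CPM in DSF, a log2 fold change of -0.29 (SE 0.07, edgeR adjusted p = 0.0115), and Hnrnpa3 71.9 and 69.2 CPM in DSF+LPS and 87.5 and 83.9 CPM in DSF, a log2 fold change of -0.28 (SE 0.08, edgeR adjusted p = 0.0277). The Srsf1 call was lost in 3 of 16 alternative settings, among them without DSF replicate 1 (-0.23) and without DSF+LPS replicate 2 (-0.21). The Hnrnpa3 call was lost in 6 of 16, among them without either LPS or either DSF library and without DSF+LPS replicate 2. Without DSF+LPS replicate 1 the test gave 8 lower, and without DSF replicate 1 or DSF+LPS replicate 2 it gave 1 lower.

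Whether the LPS response differed with the drug was tested as an interaction, the log2 fold change of DSF+LPS over DSF minus that of LPS over control. It was negative at an edgeR adjusted p under 0.05 in 7 members and positive in none, against 12.2% of all genes called lower and 7.58% called higher. At an unadjusted p under 0.05 it was negative in 14 members and positive in 0, and DESeq2 gave 6 and 0. The median interaction was -0.16 over the members and -0.02 over all genes. Srsf10 had the lowest value, -0.56 (SE 0.11, edgeR adjusted p = 0.00274), from log2 fold changes with LPS of -0.54 with the drug and 0.02 without it. Hnrnpa1 followed at -0.44 (SE 0.10, edgeR adjusted p = 0.00553), from log2 fold changes with LPS of -0.18 with the drug and 0.26 without it. For Srsf1 the interaction was -0.42 (SE 0.09, edgeR adjusted p = 0.00487), from -0.29 with the drug and 0.13 without it. These 3 calls were kept in all 14 alternative settings.

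Hnrnph2, Hnrnpa3, Hnrnpk and Hnrnpa2b1 had interactions of -0.38, -0.36, -0.31 and -0.25 (edgeR adjusted p = 0.0419, 0.0264, 0.0408 and 0.037). Each was lost under several alternatives, Hnrnpk for example without control replicate 1 (-0.27, adjusted p = 0.179). The highest values among members were 0.20 for Srsf9, 0.09 for Hnrnpul1 and 0.09 for Hnrnpa0, none of which passed (edgeR adjusted p = 0.232, 0.609 and 0.635). The count of negative calls was 3 without either control library, either LPS library or DSF replicate 1, 4 without DSF replicate 2 and 11 without DSF+LPS replicate 1. The order of the group means was DSF+LPS, DSF, control, LPS from low to high in 11 of the 30 tested members, which was the most frequent order. In Hnrnpd, Hnrnpf, Hnrnph1, Srsf2, Srsf3 and Srsf10 the libraries of neighbouring groups in that order overlapped. How often the order occurred over all genes was not counted.

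**Figure D4:**
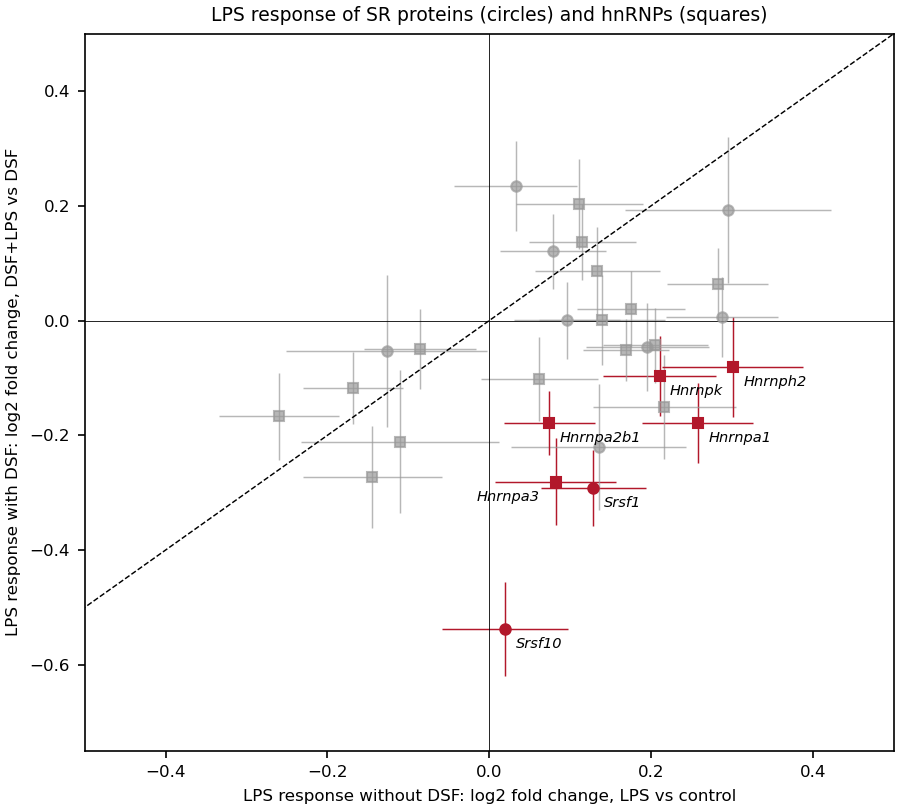
LPS response with DSF (DSF+LPS over DSF, vertical) against the LPS response without DSF (LPS over control, horizontal), as log2 fold changes of the 30 tested members with bars of 1 SE. Circles are SR protein genes, squares are hnRNP genes, red marks the 7 members with a called interaction, and the dashed line marks equal responses. The red points lie below the line, with Srsf10 at 0.02 without and -0.54 with the drug.

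The proteins that modify or carry SR proteins were examined as a list of 10 genes. In DSF+LPS relative to LPS 3 rose and 4 fell, and in DSF relative to control again 3 rose and 4 fell, with list medians of -0.0015 and -0.19. These shares, 30% higher and 40% lower, were near those over all genes, 33.7% and 31.6% in DSF+LPS relative to LPS and 31.0% and 27.1% in DSF relative to control. Dyrk1a, which encodes a kinase that phosphorylates splicing factors, had 175 and 156 CPM in DSF+LPS, against 63.7 and 71.1 CPM in LPS (log2 fold change 1.30, SE 0.09, edgeR adjusted p = 6.9e-09). With DSF alone it had 143 and 155 CPM, against 68.9 and 69.4 CPM in control (log2 fold change 1.11, SE 0.09, edgeR adjusted p = 5.66e-08). Clk4, which encodes a CDC-like kinase that phosphorylates SR proteins, rose by 0.78 on the log2 scale in DSF+LPS relative to LPS (edgeR adjusted p = 3.94e-06) and by 0.68 in DSF relative to control (adjusted p = 1.95e-05). Another, Clk3, rose by 0.70 on the log2 scale with DSF (edgeR adjusted p = 7.91e-06). Prpf4b, which encodes a kinase of the spliceosome, fell with a log2 fold change of -0.68 in DSF+LPS relative to LPS (edgeR adjusted p = 8.66e-06) and of -0.48 in DSF relative to control (adjusted p = 0.000247). Tnpo3, the gene of Transportin-SR, had 120.2 and 123 CPM in DSF+LPS and 177 and 171 CPM in LPS (log2 fold change -0.52, SE 0.07, edgeR adjusted p = 2.36e-05).

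Of 20 genes of SR-related proteins, which have domains rich in arginine and serine but lie outside the SR family, 16 fell and 1 rose in DSF+LPS relative to LPS (median -0.51), with 31.6% of all genes lower and 33.7% higher. In DSF relative to control 11 fell and 2 rose (median -0.28), with 27.1% of all genes lower and 31.0% higher. Bclaf1 had 48.6 and 44.5 CPM in DSF+LPS, against 108 and 109.6 CPM in LPS (log2 fold change -1.22, SE 0.08, edgeR adjusted p = 6.47e-09), and 61.0 and 65.1 CPM in DSF, against 111 and 114 CPM in control (log2 fold change -0.84, SE 0.08, edgeR adjusted p = 4.21e-07). Its relative Thrap3 fell with log2 fold changes of -0.84 and -0.76 in these comparisons, and Srrm1 and Acin1, whose proteins associate with the exon junction complex, gave -1.03 and -0.89 in DSF+LPS relative to LPS and -0.72 and -0.76 in DSF relative to control (edgeR adjusted p at most 7e-07 in all 6). The interaction was called negative in 7 of the 20 genes, lowest in Tra2a at -0.52 (SE 0.12, edgeR adjusted p = 0.0064), and positive in 0 (unadjusted p under 0.05, 12 and 1; DESeq2, 7 and 1), against 12.2% and 7.58% of all genes.

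Among other RNA-binding regulators of splicing, 27 of 29 listed genes were tested. In DSF+LPS relative to LPS 18 fell and 5 rose (66.7% and 18.5%, median -0.36), against 31.6% and 33.7% of all genes. In DSF relative to control 14 fell and 7 rose (51.9% and 25.9%, median -0.19), against 27.1% and 31.0% of all genes. Syncrip, which encodes hnRNP Q but does not carry an Hnrnp symbol, had 52.0 and 49.6 CPM in DSF+LPS, against 179 and 185 CPM in LPS (log2 fold change -1.84, SE 0.08, edgeR adjusted p = 1.07e-10). Ptbp3, a paralog of the polypyrimidine tract binding protein gene, had 78.5 and 87.9 CPM in DSF+LPS, against 279 and 302 CPM in LPS (log2 fold change -1.80, SE 0.10, edgeR adjusted p = 6.4e-10). Both changed by more than any SR protein or hnRNP gene in that comparison, as did Nono. Nono, a paraspeckle protein gene, fell with a log2 fold change of -1.67 in DSF+LPS relative to LPS (edgeR adjusted p = 3.5e-11) and of -1.42 in DSF relative to control (adjusted p = 3.12e-10), and Celf2 with -1.33 and -1.27 (adjusted p = 8.21e-09 and 1.72e-08).

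The muscleblind genes went in opposite directions with DSF. Mbnl2 had 191 and 186 CPM with DSF, against 58.6 and 62.2 CPM in control (log2 fold change 1.64, SE 0.07, edgeR adjusted p = 1.75e-10), whereas Mbnl1 gave a log2 fold change of -1.21 (SE 0.07, edgeR adjusted p = 2.18e-09). The interaction was called negative in 7 of the 27 regulators and positive in 0 (unadjusted p under 0.05, 11 and 1; DESeq2, 7 and 1), against 12.2% and 7.58% of all genes. Ptbp3 was the lowest at -1.04 (SE 0.13, edgeR adjusted p = 4.81e-05), followed by Syncrip at -0.68 (SE 0.11, edgeR adjusted p = 0.000622) and Rbmx at -0.67 (SE 0.12, edgeR adjusted p = 0.00119). Ptbp3 had averaged 83.2 ± 6.64 CPM in DSF+LPS, 121 ± 7.42 CPM in DSF, 290.3 ± 16.3 CPM in LPS and 205 ± 26.9 CPM in control (SD, n = 2).

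The core spliceosome list, 33 genes of the small nuclear ribonucleoproteins and their partners, had all its members tested. In DSF+LPS relative to LPS 15 fell and 8 rose (45.5% and 24.2%, median -0.15), against 31.6% and 33.7% of all genes. In DSF relative to control 16 fell and 3 rose (48.5% and 9.09%, median -0.22), against 27.1% and 31.0% of all genes. Cdc5l, which encodes a member of the complex around Prp19, had 14.2 and 14.4 CPM in DSF+LPS, against 31.3 and 36.2 CPM in LPS (log2 fold change -1.24, SE 0.11, edgeR adjusted p = 2.07e-07), and fell with a log2 fold change of -1.17 in DSF relative to control (edgeR adjusted p = 4.54e-07). The U2 component gene Sf3b3 fell with log2 fold changes of -0.76 and -0.71 (edgeR adjusted p = 1.57e-07 and 4.62e-07). Sf3a1, also of U2, and Eftud2, of U5, fell with log2 fold changes of -0.73 and -0.60 in DSF relative to control (edgeR adjusted p = 1.45e-06 and 1.69e-06). Snrpa, which encodes the U1 protein A, was higher, at 231 and 232 CPM in DSF+LPS against 146 and 135 CPM in LPS (log2 fold change 0.72, SE 0.07, edgeR adjusted p = 4.23e-07).

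**Figure D5:**
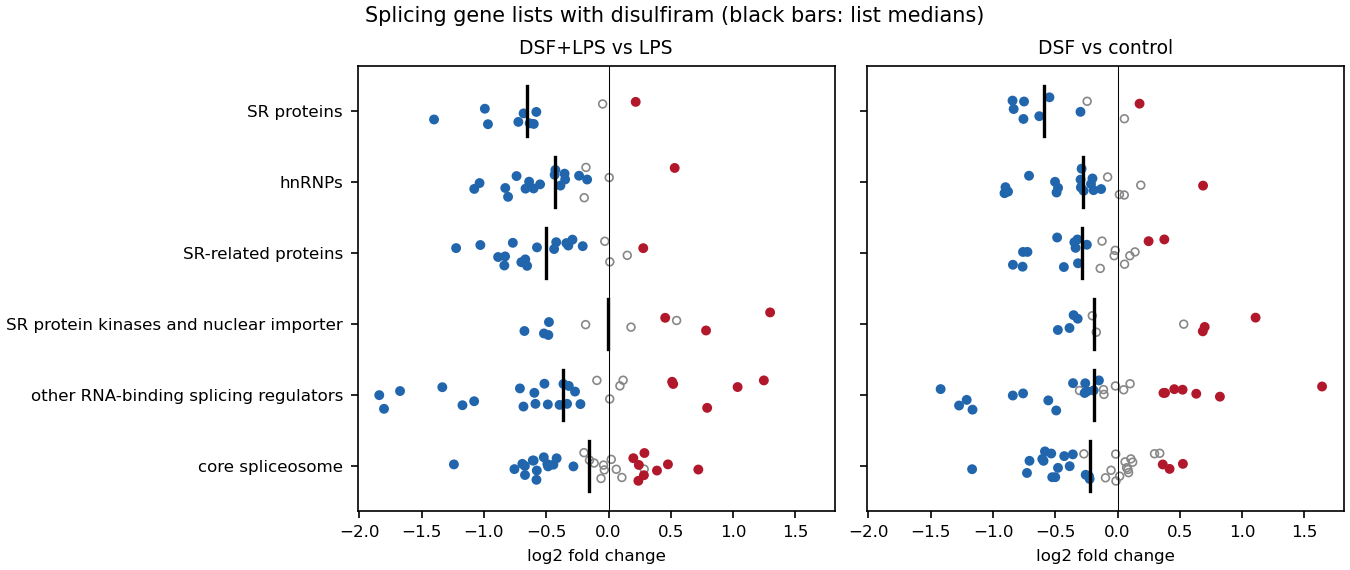
Log2 fold changes of single genes in the SR protein and hnRNP families and in 4 related lists, for DSF+LPS with LPS (left) and DSF with control (right). Each point is a gene, blue where called lower, red where called higher and open where not called, and black bars are list medians. The SR protein medians, -0.66 on the left and -0.59 on the right, lie farthest from zero.

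Several members overlap another gene in the annotation, among them Hnrnpab with Phykpl, Srsf2 with Mettl23 and Mfsd11, Hnrnpu with Cox20 and Hnrnpk with Rmi1. Without a stated strand setting their reads cannot be told apart from those of the partner. Hnrnpa1, Hnrnpa3 and Srsf3 are known to have processed copies in the genome, so their counts are uncertain as to the copy. The pseudogene rows left out, Hnrnpa1l2-ps and Hnrnpa1l2-ps2, held 20 to 114 counts per library.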

How the data were processed

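RNA was measured by mRNA sequencing in 8 libraries. The deposited values are raw read counts by gene, in whole numbers. The submitters' processing notes name GRCm39 and DESeq2 and give neither a role. Aligner, counting tool and strand setting: not given in the sources used here. Gene symbols and transcript lengths came from GENCODE M21 on the older assembly GRCm38 (52081 of 55414 identifiers matched), so no gene coordinates are printed; promoter windows came from RefSeq (GRCm38.p6).

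Counts were tested with edgeR 4.0.16 in R 4.3.3 by the quasi-likelihood test. The model over the 8 libraries had a mean per group, with TMM scaling and the filterByExpr defaults (minimum count 10, minimum total 15), which left 16304 genes. P-values were adjusted by Benjamini-Hochberg over all genes tested, and a gene was called at an adjusted p under 0.05. The SE was taken as the absolute log2 fold change over the square root of F. The common biological coefficient of variation was 7.85%. The test was also run on simulated counts whose spread was taken from these libraries. That run cannot show whether the spread is technical only. Alternatives were DESeq2 1.42.0, other scalings and filters, the 2 groups compared alone, a replicate block and leaving out each library.

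The members and gene lists were chosen with earlier results of these data known. Every member could be named by level; fold changes with errors were given for called members and for the 3 highest and lowest of a comparison, and up to 4 called members of each list. Counts in protein sequences were planned but not made.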

Additional observations from a re-analysis of the deposited data

Results flagged for a closer look

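The interaction, the log2 fold change of DSF+LPS over DSF minus that of LPS over control, was tested in the edgeR fit over all 16304 genes, and the LPS response differed with the drug in 7 members, all lower, against 12.2% of all genes called lower and 7.58% called higher. For Srsf10 the difference was -0.56 (adjusted p = 0.00274), with mean levels of 46.4 ± 2.95 CPM in DSF+LPS, 67.3 ± 4.18 CPM in DSF, 122 ± 3.21 CPM in LPS and 121 ± 1.89 CPM in control (SD, n = 2). For Hnrnpa1 it was -0.44 (edgeR adjusted p = 0.00553), with 133 ± 5.92, 151 ± 3.60, 207 ± 3.98 and 173 ± 6.65 CPM in the same order. For Srsf1 it was -0.42 (edgeR adjusted p = 0.00487), with 260.0 ± 15.0, 318 ± 14.8, 509 ± 7.38 and 465 ± 11.1 CPM. In these 3 genes the adjusted p did not exceed 0.0286, 0.0439 and 0.045 in 14 alternative settings.

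In the other 4 genes the call was lost under several settings. The differences were -0.38 for Hnrnph2 (edgeR adjusted p = 0.0419, up to 0.215 over the alternatives), -0.36 for Hnrnpa3 (adjusted p = 0.0264, up to 0.143), -0.31 for Hnrnpk (adjusted p = 0.0408, up to 0.179) and -0.25 for Hnrnpa2b1 (adjusted p = 0.037, up to 0.187).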

How the results depend on the processing

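Most falls with the drug were kept. Of 22 falls in DSF relative to control, 18 were called in all 15 alternatives, as were 22 of 24 in DSF+LPS relative to LPS, and Hnrnpc rose in all of them. Of 1181 values of single members under alternatives, 1036 kept their direction and side of the threshold, 114 lost and 23 gained a call, and 8 turned, all of these uncalled; the cause was not tested. At totals of 17822041 to 21694922 counts, Srsf12 could not be tested.

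With library size alone, which moved the median of all genes by -0.143 (LPS), -0.103 (DSF) and -0.105 (DSF+LPS relative to DSF), members higher and lower numbered 0 and 4 for LPS relative to control, 1 member rose with DSF relative to control, and 9 were lower in DSF+LPS relative to DSF and 3 in the interaction. All genes higher and lower were then 1614 and 3773 for LPS relative to control, against 2485 and 2246, and 465 and 2189 for DSF+LPS relative to DSF, against 900 and 1065. With no filter the counts were 2 lower with LPS, 1 higher with DSF, 1 higher and 5 lower in DSF+LPS relative to DSF, and 4 lower in the interaction. At 50 counts in 2 libraries they were 2 lower with LPS and 1 higher in DSF+LPS relative to DSF, where RLE scaling and DESeq2 also gave 1 higher. In fits of only the 2 groups compared, 11 were higher and 3 lower with LPS, 1 was lower in DSF+LPS relative to DSF, and all genes numbered 324 higher and 200 lower there.

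Leaving out 1 library at a time gave 1 to 10 higher and 0 to 2 lower with LPS, 1 to 2 higher and 19 to 23 lower with DSF, 1 to 3 higher and 22 to 25 lower in DSF+LPS relative to LPS, 0 to 2 higher and 1 to 8 lower in DSF+LPS relative to DSF, and 3 to 11 lower and 0 higher in the interaction. Hnrnpdl in DSF+LPS relative to LPS (0.01) was -0.046 with library size alone, -0.0045 with no filter and -0.12 to 0.13 with a library left out. Srsf7 in DSF+LPS relative to DSF was -0.10 to 0.46 and the Hnrnpul1 interaction -0.0068 to 0.19 with a library left out.

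Samples shared only a replicate number, with correlations of same-numbered deviations from -0.119 to 0.0531. The replicate block gave 5 members lower in DSF+LPS relative to DSF and 8 in the interaction and left the other counts of members as they were. A crossed pairing of those 2 groups, chosen after seeing the data, gave 0 higher and 3 lower.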
